A study of Mus musculus with 282 samples.

Results

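The 10 genes described here are stem markers: Cd44, Aldh1a1, Sox4, Sox9, Prom1, Alcam, Cd200, Lrig1, Bmi1 and Procr. They are 10 of the 48440 gene rows of the count tables, and all 10 had enough counts to be tested. They were chosen by name, as genes used to mark stem or progenitor cells, and with earlier results of these data known. Their levels and the share of cells with reads were compared between naive and inflamed prostates within each batch. Single-cell RNA-seq was available for 282 cells from male POET3 mice, a transgenic line that expresses ovalbumin in the prostate and serves as a model of prostatitis, and every group carries this transgene. The cells, labelled basal prostate stem cells, were sorted with a viability dye and antibodies to Sca-1, CD49f, CD31 and CD45, and were captured on a Fluidigm C1 instrument. Every cell is labelled as naive or inflamed and as batch 2 or batch 3. The promoter of the transgene, how inflammation was induced, the age and number of the mice and the sort gates were not given in the sources used here. After a filter on quality, batch 2 had 53 naive and 80 inflamed cells, and batch 3 had 59 naive and 76 inflamed cells.

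Stem and progenitor cells are often recognised by genes that work in quite different ways. Cd44 encodes a surface receptor for hyaluronan, a sugar polymer of the extracellular matrix, and Aldh1a1 encodes a retinaldehyde dehydrogenase that makes retinoic acid and whose activity is used to sort stem-like cells. Sox4 and Sox9 encode transcription factors with an HMG-box, and Sox9 is required in prostate bud development. Prom1 (CD133), Alcam (CD166) and Cd200 encode surface proteins used as markers in sorting. Lrig1 encodes an inhibitor of ERBB receptors that marks quiescent stem cells in skin and gut, Bmi1 a subunit of polycomb repressive complex 1 that silences the Cdkn2a locus, and Procr the protein C receptor, which marks a multipotent population in the mammary gland.

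Cells are not replicates and the labels name no animal. The counts of all kept cells that share a condition and a batch were therefore added up, which gave 4 sums, 2 for each condition. A level below is in CPM, the counts of a gene scaled to 1000000 counts of such a sum, unless a cell is named. The edgeR p-values rest in part on how unlike the 2 batches were in their difference between conditions, and that spread may be technical. They also rest on a spread borrowed from all genes, with 2.66 prior beside 1 residual degrees of freedom. In sums of this kind fewer cells with a transcript and less RNA per cell cannot be told apart. The share of cells with a read is therefore given for each of the 10 genes, but not for every gene of the other lists. The median cell held between 840863 and 1001872 counts and between 3432 and 4739 detected genes in the 4 groups, with naive batch 3 lowest in both. The median mitochondrial share was 2.67% and 2.26% in the naive groups and 3.73% and 2.82% in the inflamed groups. Its part in the results was not tested. All 10 basal markers, Krt5, Krt14 and Trp63 among them, were measured well enough to be tested, with a summed level of 8277 and 10111 CPM in the naive and 13899 and 13938 CPM in the inflamed sums. Krt17 gave the most of that gap, with 1668 and 3704 CPM in the naive and 6864 and 5813 CPM in the inflamed sums, whereas Krt5 (338.9 and 198.6 against 139.3 and 169.9 CPM) and Trp63 (268.9 and 344.5 against 83.01 and 294 CPM) were lower in the inflamed sum of each batch. Of 10 leukocyte markers, 8 had 0 reads in every group, Ptprc (CD45) included, and their summed level was 0, 0, 0.0127 and 0.684 CPM in naive batch 2, naive batch 3, inflamed batch 2 and inflamed batch 3. Luminal markers summed to between 1763 and 2908 CPM. Of these 13 markers, 1 on each side had an unadjusted p under 0.05. Krt19 had naive levels of 30.3 and 100.9 CPM and inflamed levels of 584.4 and 619.2 CPM, while Hoxb13 had 119.7 and 108.6 CPM against 29.4 and 12.97 CPM. Endothelial markers to between 6.11 and 22.3 CPM with Emcn and Tie1 at 0 reads, and neuroendocrine markers to between 0 and 0.381 CPM. Stromal markers summed to between 3410 and 4511 CPM, nearly all from Dcn, while Pdgfrb, Lum and Myh11 had 0 reads. The 5 seminal vesicle markers summed to 11.6 and 156.7 CPM in the naive and 67.2 and 0 CPM in the inflamed sums. The part of the basal, luminal, stromal and seminal vesicle markers in the results was not tested.

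Promoter sequences were taken from RefSeq (build GRCm38.p6), which held an entry for 9 of the 10 genes and 11 entries in all, each of 250 bases before and 50 bases after a transcription start. Shown are those of Cd44, Alcam and Sox4, the genes whose level was higher in both inflamed sums and in more than a few cells. Those of Aldh1a1 and Cd200, which were lower in both, are shown too. The choice was uneven, since Procr, higher in both, was left out as read in few cells, and Cd200 was also read in few cells. Capitals mark matches on either strand to 6 short motifs.
Cd44, chr2:102901616-102901915, minus strand: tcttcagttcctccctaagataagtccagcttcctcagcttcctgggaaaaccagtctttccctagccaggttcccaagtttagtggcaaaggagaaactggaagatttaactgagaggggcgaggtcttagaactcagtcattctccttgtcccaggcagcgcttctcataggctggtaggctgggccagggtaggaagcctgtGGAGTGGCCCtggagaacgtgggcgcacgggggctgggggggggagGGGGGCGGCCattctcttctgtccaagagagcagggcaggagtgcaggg
Alcam, chr16:52453032-52453331, minus strand: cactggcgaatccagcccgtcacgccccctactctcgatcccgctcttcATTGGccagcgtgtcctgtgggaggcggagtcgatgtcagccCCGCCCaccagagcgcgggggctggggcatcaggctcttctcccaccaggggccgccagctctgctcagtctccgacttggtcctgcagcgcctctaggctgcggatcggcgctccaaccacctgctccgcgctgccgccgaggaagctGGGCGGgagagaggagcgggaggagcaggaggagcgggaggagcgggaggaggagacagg
Sox4, chr13:28953650-28953949, minus strand: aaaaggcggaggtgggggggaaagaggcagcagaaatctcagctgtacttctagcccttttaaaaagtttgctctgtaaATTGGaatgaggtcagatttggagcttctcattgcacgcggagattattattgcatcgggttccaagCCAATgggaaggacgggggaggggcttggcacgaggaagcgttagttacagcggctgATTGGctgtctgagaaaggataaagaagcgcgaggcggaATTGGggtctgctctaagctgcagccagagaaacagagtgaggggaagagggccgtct
Aldh1a1, upstream start, chr19:20492333-20492632, plus strand: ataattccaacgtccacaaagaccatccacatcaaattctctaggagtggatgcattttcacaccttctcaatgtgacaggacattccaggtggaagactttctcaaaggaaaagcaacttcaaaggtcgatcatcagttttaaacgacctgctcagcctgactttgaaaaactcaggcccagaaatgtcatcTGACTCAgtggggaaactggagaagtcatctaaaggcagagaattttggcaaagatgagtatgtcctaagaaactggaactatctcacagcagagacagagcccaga
Aldh1a1, downstream start, chr19:20601718-20602017, plus strand: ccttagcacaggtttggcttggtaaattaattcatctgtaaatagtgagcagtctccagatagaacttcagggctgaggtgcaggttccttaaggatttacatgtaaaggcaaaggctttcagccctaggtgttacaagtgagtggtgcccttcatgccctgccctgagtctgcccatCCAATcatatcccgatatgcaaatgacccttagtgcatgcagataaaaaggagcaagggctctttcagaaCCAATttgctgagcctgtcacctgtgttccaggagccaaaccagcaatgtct
Cd200, chr16:45409004-45409303, minus strand: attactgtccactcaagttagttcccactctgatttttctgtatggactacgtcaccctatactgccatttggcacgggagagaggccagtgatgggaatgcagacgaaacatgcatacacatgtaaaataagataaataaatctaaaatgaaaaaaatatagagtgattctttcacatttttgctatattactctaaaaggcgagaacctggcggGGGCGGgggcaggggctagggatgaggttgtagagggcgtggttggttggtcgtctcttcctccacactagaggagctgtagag

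The motifs searched were an NF-kB motif with the letters GGGNNNNNCC, found in 50.8% of the 32851 mouse promoter entries of this length, and an AP-1 motif with the letters TGANTCA, found in 7.81%. A STAT motif with the letters TTCNNNGAA was found in 8.30% of all entries, a TATA box with the letters TATAAA in 13.6%, a CCAAT box in 37.4% and a GC box with the letters GGGCGG in 35.7%. The Cd44 promoter held 2 matches to the NF-kB letters, and 1 GC box lay inside the match after the start site. The Alcam promoter held 1 CCAAT box and 2 GC boxes, and the Sox4 promoter held 4 CCAAT boxes and nothing else that was searched. The upstream Aldh1a1 promoter held 1 match to the AP-1 letters, at position -57 from the start site, the downstream one held 2 CCAAT boxes, and the Cd200 promoter held 1 GC box at position -34. Among the promoters not shown, that of Procr held 3 matches to the NF-kB letters and 1 to the AP-1 letters. Both Prom1 entries held 1 match to each of these. The Lrig1 promoter held 2 matches to the NF-kB letters and the Bmi1 promoter 1. None of the 6 promoters shown held the TATAAA or the STAT letters. Their GC content was 58% for Cd44, 69.7% for Alcam, 52% for Sox4, 43.3% and 47% for the Aldh1a1 starts and 45% for Cd200, beside a median of 52.7% over all entries. A match is only a run of letters, and its absence says nothing about a factor.

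Over all 14713 genes tested, edgeR's quasi-likelihood test gave 0 genes with an adjusted p under 0.05 (0% of genes), and none of the 10 stem markers passed, with a lowest adjusted p of 0.568. At an unadjusted p under 0.05, 742 genes were higher in inflamed cells (5.04% of genes), among them Cd44 and Alcam, and 475 were lower (3.23%), among them Aldh1a1. DESeq2, run as an alternative on the same sums, called 1461 genes (9.93%), 927 higher and 534 lower, and among them 5 of the 10 markers. In this fit Cd44, Alcam and Procr were higher and Aldh1a1 and Cd200 lower. Of the 10 markers, 4 were higher in both batches (30.6% of all genes) and 4 were lower in both (28.6%). Both inflamed sums lay above both naive sums for 4 markers, Cd44, Sox4, Alcam and Procr, where 24.3% of all genes did so. Both lay below for 2, Aldh1a1 and Cd200, beside 21.3% of all genes. The median log2 difference over the 10 genes was 0.26 and over all genes 0.10. Read against these shares of all genes, the counts of directions do not set the markers apart as a list, and they are described gene by gene.

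**Figure D1:**
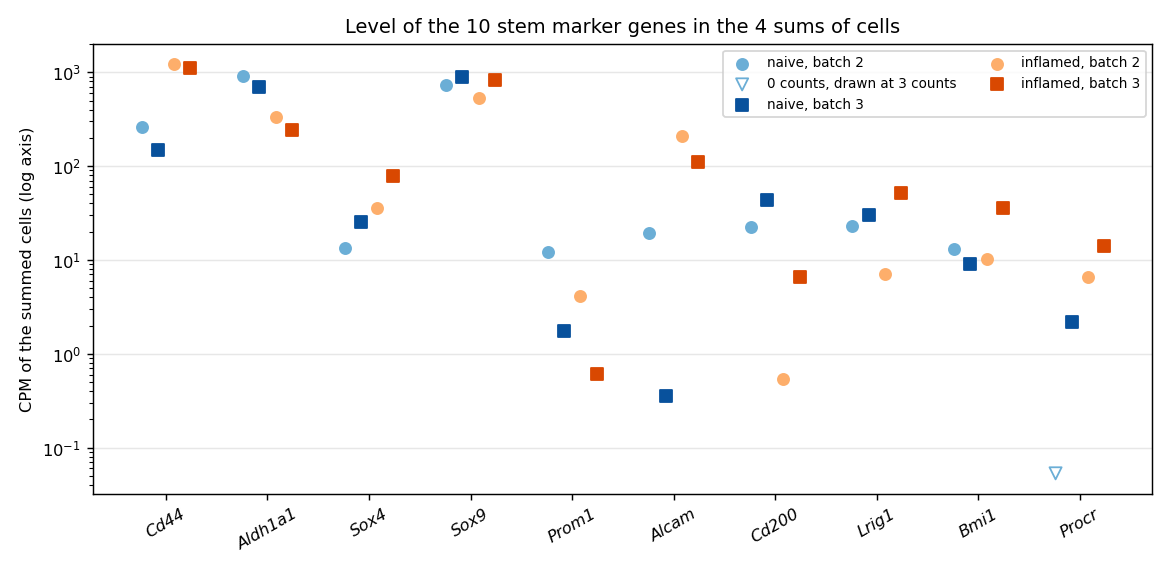
Level of each of the 10 stem marker genes in the 4 sums of cells, in CPM on a log axis, with circles for batch 2, squares for batch 3, blue for naive and orange for inflamed. The orange points of Cd44 and Alcam lie above the blue ones, those of Aldh1a1 and Cd200 lie below, and the open triangle stands for the 0 Procr counts of naive batch 2.

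Cd44, the hyaluronan receptor (ENSMUSG00000005087, GRCm38 chromosome 2, 102811141 to 102901665, minus strand), was several times higher in the inflamed sums. Its level was 260.1 CPM in naive batch 2 and 147.8 CPM in naive batch 3, while inflamed batch 2 had 1214 CPM and inflamed batch 3 had 1110 CPM. The 2 inflamed sums lay within 1.09-fold of each other and the 2 naive sums within 1.76-fold, and the conditions did not overlap. The difference was 4.67-fold in batch 2 and 7.51-fold in batch 3, and the fitted log2 difference was 2.57 ± 0.34 (SE; edgeR unadjusted p = 0.00233, adjusted p = 0.568). By its unadjusted p Cd44 ranked at place 47 of the 14713 genes. DESeq2 gave a log2 difference of 2.56 with an adjusted p of 6.8e-06.

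Cd44 was read in most naive cells too, but at a low level in the typical one. At least 1 read was found in 96.2% of the naive batch-2 cells (95% Clopper-Pearson interval 87.02 to 99.5%) and 76.3% of batch 3 (63.4 to 86.4%), and in 100% of the inflamed cells of both batches (lower bounds 95.5 and 95.3%). These intervals cover counting error only, since cells are not replicates and the labels name no animal. The median naive cell held 10.7 CPM in batch 2 and 2.49 CPM in batch 3, and the median inflamed cell 916.5 and 652.2 CPM. At a cutoff of 100 CPM, chosen after the values were seen, 26.4 and 13.6% of naive cells and 83.8 and 80.3% of inflamed cells qualified. A few naive cells carried the naive level: the 5 cells with the most Cd44 reads held 80.7% of the reads of naive batch 2 and 90.9% of naive batch 3, against 23.1 and 28.9% in the inflamed groups. The cells of the conditions overlapped, with a highest naive cell at 2859 CPM and a lowest inflamed cell at 0.922 CPM. With every cell thinned to 500000 counts and shallower cells left out (7 and 4 naive, 10 and 4 inflamed), 84.8 and 65.5% of naive cells and 100 and 100% of inflamed cells kept a read.

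Aldh1a1 (ENSMUSG00000053279, chromosome 19, 20492715 to 20643465, plus strand), which makes retinoic acid, went the other way by a similar amount in both batches. Its level was 917.5 and 701.7 CPM in naive batches 2 and 3, and 334.7 and 242.8 CPM in inflamed batches 2 and 3. The conditions did not overlap, and the inflamed level was 2.74-fold lower in batch 2, with a 2.89-fold difference the same way in batch 3. The fitted log2 difference was -1.49 ± 0.28 (SE; edgeR unadjusted p = 0.00752, adjusted p = 0.568), and DESeq2 gave -1.50 with an adjusted p of 0.0194.

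Reads of Aldh1a1 were found in 100% of the naive cells of both batches, in 87.5% (78.2 to 93.8%) of inflamed cells of batch 2 and in 78.95% (68.1 to 87.5%) of batch 3. Thinning to 500000 counts left 100% for naive batch 2 but 85.5% for naive batch 3, beside 87.1 and 76.4% in the inflamed groups, so in batch 3 the gap in shares narrowed at equal depth. The median cell held 522.9 CPM in naive batch 2, 109.5 CPM in naive batch 3 and 63.1 CPM in inflamed batch 3, and the median of inflamed batch 2 lay between those of the naive groups. The share of cells at 100 CPM or more was 71.7 and 50.9% in naive and 55 and 47.4% in inflamed cells. The highest cells differed more, with 15007 and 4346 CPM in the naive groups and 1661 and 1957 CPM in the inflamed groups. Without the cell with the most reads in each group, the log2 difference was -1.43. Within naive batch 3 the Aldh1a1 level of a cell went with its number of detected genes (Spearman rho 0.41 over 59 cells), and naive batch 3 had the fewest detected genes per cell.

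Aldh1a7, a close paralog of Aldh1a1, is given because some reads could be placed in either gene. It had 313.6 and 161.9 CPM in the naive and 212.8 and 168.5 CPM in the inflamed sums, which overlapped (edgeR unadjusted p = 0.535). A read of Aldh1a7 was found in 86.8 and 66.1% of naive and 63.75 and 46.05% of inflamed cells, a lower share in both batches, as for Aldh1a1. The treatment of reads that map to both genes was not given in the sources used here, so the split between them is uncertain. Aldh1a3, another retinaldehyde dehydrogenase, had 0.266 and 0.0211 CPM in the naive and 8.84 and 5.29 CPM in the inflamed sums (unadjusted p = 0.0599).

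**Figure D2:**
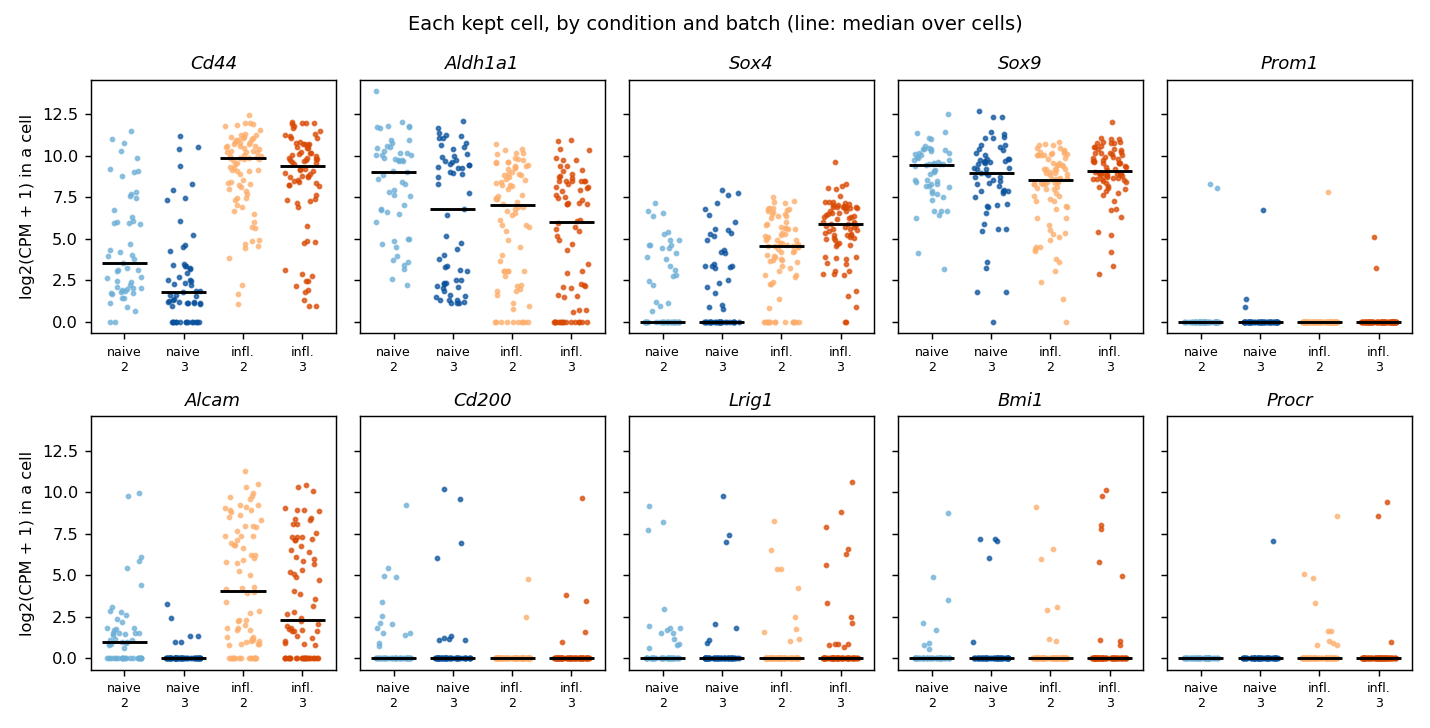
Level of each of the 10 genes in every kept cell as log2(CPM + 1), with 1 point per cell, 1 column per condition and batch, and a line at the median over cells. Most naive cells lie low for Cd44 and most inflamed cells high, while Prom1, Cd200, Lrig1, Bmi1 and Procr lie at 0 in most cells of every group, with a few cells far above.

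Sox4 (ENSMUSG00000076431, chromosome 13, 28948919 to 28953713, minus strand), a transcription factor of progenitor and tumour cells, was found in more inflamed cells. Its level was 13.3 and 25.5 CPM in the naive and 36.2 and 79.1 CPM in the inflamed sums of batches 2 and 3. The sums did not overlap, and batch 3 was the higher in both conditions, 1.92-fold in the naive and 2.19-fold in the inflamed sums. Within the batches the conditions differed 2.73-fold and 3.10-fold. The fitted log2 difference of 1.54 ± 0.70 (SE) had an edgeR unadjusted p of 0.0987 and an adjusted p of 0.626, and the DESeq2 adjusted p was 0.224. Naive cells with a read made up 49.1 and 49.2%, and inflamed cells with a read 82.5 and 97.4%. After thinning these shares were 43.5 and 43.6% for naive and 82.9 and 95.8% for inflamed cells. With at least 5 reads required, the shares were 32.1 and 35.6% in naive and 72.5 and 92.1% in inflamed cells.

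Sox9 (ENSMUSG00000000567, chromosome 11, 112782224 to 112787760, plus strand), a factor of prostate epithelial development, was abundant in all groups. Its level was 738.3 and 897 CPM in the naive and 530.4 and 824.6 CPM in the inflamed sums, which overlapped. The fitted log2 difference was -0.30 ± 0.28 (SE; edgeR unadjusted p = 0.347). At least 1 read was found in between 98.3 and 100% of the cells of every group, and the median cell held 689.4 and 502.4 CPM in the naive and 360.8 and 536.4 CPM in the inflamed groups.

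Alcam (ENSMUSG00000022636, chromosome 16, 52248996 to 52454074, minus strand), an adhesion molecule that binds CD6 on T cells, was higher in both inflamed sums, by very different folds in the 2 batches. Its level was 19.3 CPM in naive batch 2 and 0.358 CPM in naive batch 3, and 207.8 and 110.1 CPM in the inflamed sums. The conditions did not overlap, but the 2 naive sums differed 53.8-fold, and the fold between conditions was 10.8 in batch 2 and 307.4 in batch 3. The naive level of batch 3 rests on 17 reads. In naive batch 2, 1 cell held 76.5% of the 1087 reads, and without the top cell of each group the fitted log2 difference was 7.07 in place of 5.75 ± 1.73 (SE; edgeR unadjusted p = 0.0335, adjusted p = 0.568; DESeq2 adjusted p = 2.6e-08).

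Alcam was read in 60.4% (46 to 73.6%) of naive cells of batch 2 and 10.2% (3.82 to 20.8%) of batch 3, and in 80% (69.6 to 88.1%) and 69.7% (58.1 to 79.8%) of inflamed cells. Most of the positive naive cells of batch 2 held only a few reads, since 16.98% of cells had at least 5 and 32.6% kept a read after thinning. In the inflamed groups 53.8 and 47.4% of cells had at least 5 reads. At least 100 CPM was reached by 2 and 0 naive cells and by 29 and 20 inflamed cells, so the high level was found in 36.3 and 26.3% of inflamed cells.

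**Figure D3:**
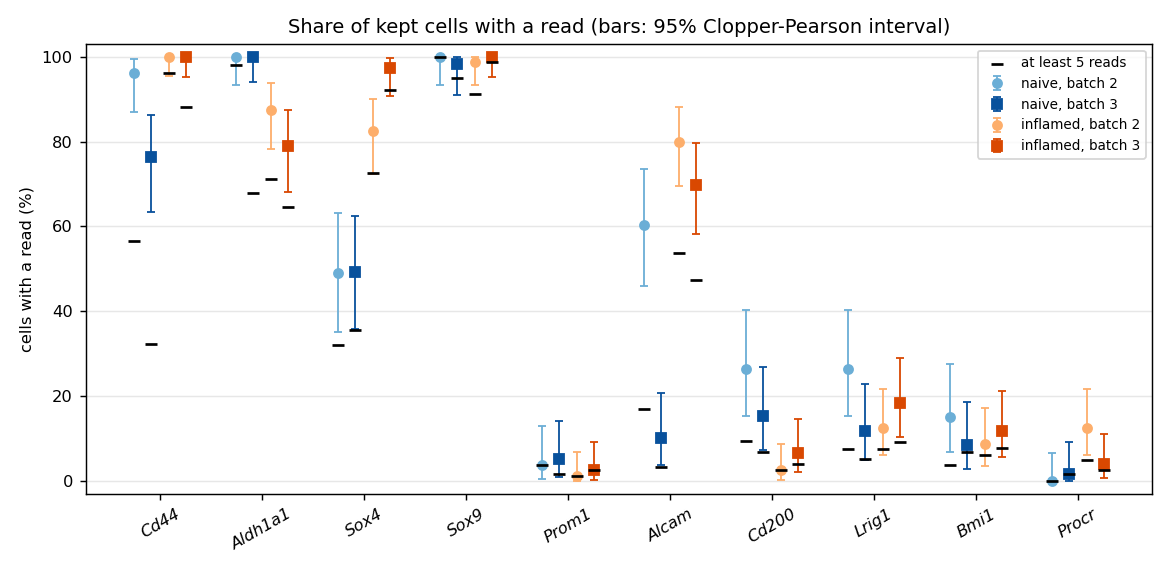
Share of kept cells with at least 1 read of each gene, in percent, with 95% Clopper-Pearson intervals as bars, by condition (blue naive, orange inflamed) and batch (circles 2, squares 3), and short black lines at the share with at least 5 reads. Sox4 stands at 49.1 and 49.2% in naive and 82.5 and 97.4% in inflamed cells, and the shares of Prom1, Lrig1, Bmi1 and Procr lie below 30% in every group.

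Cd200 (ENSMUSG00000022661, chromosome 16, 45382135 to 45409053, minus strand), a ligand of the inhibitory receptor Cd200r1 on myeloid cells, was lower in both inflamed sums. Its level was 22.3 and 44.02 CPM in the naive and 0.533 and 6.66 CPM in the inflamed sums, a 41.8-fold difference in batch 2 and a 6.62-fold difference in batch 3. The sums did not overlap, and the fitted log2 difference was -4.04 ± 1.45 (SE; edgeR unadjusted p = 0.0544, adjusted p = 0.568; DESeq2 adjusted p = 0.00472). These levels rest on few cells: 14 of 53 and 9 of 59 naive cells (26.4 and 15.3%) and 2 of 80 and 5 of 76 inflamed cells (2.5 and 6.58%) had a read. In each group 1 cell held a large share of the reads, 86.5 and 46.5% in the naive and 88.1 and 95.5% in the inflamed groups. Without these top cells the fitted log2 difference was -5.91. With at least 5 reads required, the shares were 9.43 and 6.78% in naive and 2.5 and 3.95% in inflamed cells, a smaller gap than with 1 read. After thinning, 21.7 and 14.6% of naive and 2.86 and 5.56% of inflamed cells kept a read.

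Procr (ENSMUSG00000027611, chromosome 2, 155751117 to 155755471, plus strand) had a read in 0 of the 53 naive batch-2 cells, where a count of 0 allows a share with a read of up to 5.66% by a limit of 3 cells and of up to 6.72% by the Clopper-Pearson interval. It was read in 1 naive cell of batch 3. It was found in 10 and 3 inflamed cells (12.5 and 3.95%). The sums were 0 and 2.19 CPM in the naive and 6.57 and 14.1 CPM in the inflamed groups. Against a floor of 3 counts for the whole of naive batch 2, the inflamed level of that batch was at least 123.6-fold higher, and in batch 3 it was 6.44-fold higher. The sum of 0 depends on the filter on cells, since 1.82% of all deposited cells of naive batch 2 had a Procr read. Top cells held 86.7 and 65.98% of the inflamed reads, and the edgeR unadjusted p was 0.192. The fitted log2 difference of 5.97 ± 3.74 (SE) depends on the prior count used for the sum of 0. It was 10.24 without the top cell of each group, when both naive sums were at 0, and 3.24 with no batch term. DESeq2 gave an adjusted p of 0.0319.

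Lrig1 and Bmi1 gave no direction that held over the batches, and Prom1, lower in inflamed cells of both, was read in only a few cells. Lrig1 (ENSMUSG00000030029, chromosome 6, 94604529 to 94700158, minus strand), the ERBB inhibitor, had 23.2 and 29.9 CPM in the naive and 7.17 and 52.2 CPM in the inflamed sums, lower in inflamed cells of batch 2 and higher in those of batch 3. Bmi1 (ENSMUSG00000026739, chromosome 2, 18677018 to 18686629, plus strand), the polycomb subunit, had 13.2 and 9.12 CPM in the naive and 10.2 and 36.1 CPM in the inflamed sums, with the same pair of directions. Prom1 (ENSMUSG00000029086, chromosome 5, 43993620 to 44102032, minus strand) had 12.01 and 1.77 CPM in the naive and 4.15 and 0.605 CPM in the inflamed sums, 2.90-fold and 2.93-fold lower within the batches, but the sums of the conditions overlapped. The edgeR unadjusted p was 0.716 for Lrig1, 0.573 for Bmi1 and 0.405 for Prom1.

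These 3 genes were read in few cells. Lrig1 was found in 26.4 and 11.9% of naive and 12.5 and 18.4% of inflamed cells, Bmi1 in 15.1 and 8.47% of naive and 8.75 and 11.8% of inflamed cells, and Prom1 in 2 and 3 naive and 1 and 2 inflamed cells. The cell with the most reads held between 54.7 and 83.99% of a group's Lrig1 reads, between 32.6 and 93.01% of its Bmi1 reads and between 59.6 and 100% of its Prom1 reads. Strand was not stated, and Slc25a26, which overlaps Lrig1 on the opposite strand, had 2472 reads beside the 7263 of Lrig1, while the transcript Gm42716 within Prom1 had 573 reads beside 1135. Reads of these overlapping genes could not be told apart with certainty.

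Per kilobase of exon, the 3 most abundant of the 10 genes were Aldh1a1, Sox9 and Cd44 in every sum. In the naive sums Aldh1a1 (185.9 and 142.1 CPM per kilobase) and Sox9 (178.5 and 216.9) stood far above Cd44 (38.4 and 21.8). In the inflamed sums Cd44 (179.2 and 163.7) stood beside Sox9 (128.3 and 199.4), and Aldh1a1 (67.8 and 49.2) was the third. Aldh1a1 and Sox9 changed places between the naive batches, and Cd44 and Sox9 between the inflamed batches, so the order within these pairs was not stable. The other genes were below 30 CPM per kilobase in every sum. Alcam was at places 8 and 10 in the naive sums and at places 4 and 5 in the inflamed sums, and Cd200 at place 4 in both naive sums and at places 10 and 9 in the inflamed sums.

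Within single cells the 10 genes were found in varying combinations. A median of 5, 4, 5 and 5 of the 10 genes had a read per cell in naive batch 2, naive batch 3, inflamed batch 2 and inflamed batch 3, and 4, 3, 5 and 5 after thinning. At least 6 of the genes were found, after thinning, in 8.70 and 7.27% of naive and 21.4 and 18.1% of inflamed cells. Of the 5 genes read in few cells (Prom1, Cd200, Lrig1, Bmi1 and Procr), at least 1 had 5 or more reads in 22.6 and 16.95% of naive and 18.8 and 22.4% of inflamed cells, and 2 or more did so in only 1, 1, 3 and 3 cells. A naive cell of batch 3, chosen after its values were seen, had reads of 8 of the 10 genes among 5444 detected genes, and it alone held 97.6% of the Prom1 reads, 45.3% of the Cd200 reads and 100% of the Procr reads of its group. Cd44 and Aldh1a1 levels did not go together across cells, with a Spearman rho of -0.07, 0.07, 0.14 and 0.03 in the 4 groups. These correlations are over cells that share a library preparation, and they are given as descriptions.

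By the mean Spearman rho over the 4 groups, among 4826 genes that each group showed in 20% of its cells or more, the genes most like Cd44 were Gm26788 (0.30), Vps41 (0.29) and Map3k20 (0.28). Those most like Aldh1a1 were Prdx1 (0.31), Dnajb4 (0.29) and Mrpl48 (0.28). Sox4 went most with Rpl39 (0.28), Pak2 (0.27) and Rpl36-ps3 (0.26), and Sox9 with Notch2 (0.25), Prpf39 (0.24) and Lgr4 (0.23). All of these values are low for the best of 4826 genes, and in sparse counts they are no finding.

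Genes that work with these markers were taken from 8 lists, none of which had a gene past the adjusted threshold. Of all genes tested, 30.6% were higher and 28.6% lower in both batches, 5.04% had an unadjusted p under 0.05 on the higher side and 3.23% on the lower, and the median log2 difference was 0.10. Of 16 tested genes around CD44 and hyaluronan (22 listed), 8 were higher in both batches and 4 lower, and the median log2 difference was 0.36. At an unadjusted p under 0.05, 3 were higher and 1 lower. Hmmr, another hyaluronan receptor that is also a mitotic gene, had 0 counts in both naive sums and 246 and 3046 counts in the inflamed sums. That was at least 58.7-fold and 633.9-fold higher (edgeR unadjusted p = 0.0222). Hmmr was read in only 5 and 10.5% of inflamed cells, where 1 cell held 59.8 and 47.3% of the reads. Adam10, a protease that sheds CD44, had 126.4 and 275.4 CPM in the naive and 664.7 and 729.8 CPM in the inflamed sums (p = 0.0110). Msn, which links CD44 to actin, had 125.1 and 181.5 CPM against 532.8 and 394.1 CPM (p = 0.0196). Vcan, a hyaluronan-binding proteoglycan, had 133.3 and 78.6 CPM against 11.6 and 16.98 CPM (p = 0.0171). In the inflamed groups 1 cell held 64.9 and 67.2% of the Vcan reads. The sums of these 4 genes did not overlap between the conditions, which the rule that chose them makes likely. Of the 16 tested genes of the list, 6 had both inflamed sums above both naive sums and 3 had both below. Of all genes, 24.3 and 21.3% did so.

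Of 15 tested genes of retinoid synthesis and response (20 listed), 6 were higher in both batches and 4 lower (30.6 and 28.6% of all genes), with a median log2 difference of 0.56. Stra6, the receptor that takes up retinol, had 1.595 and 0.527 CPM in the naive and 65.1 and 84.3 CPM in the inflamed sums, a log2 difference of 6.32 ± 1.10 (SE; edgeR unadjusted p = 0.00587). Aldh3a1, an aldehyde dehydrogenase abundant in cornea, had 63.3 and 23.99 CPM against 131.2 and 150.8 CPM (p = 0.0486). Aldh2, the mitochondrial acetaldehyde dehydrogenase, had 90.5 and 27.1 CPM against 20.6 and 1.47 CPM (p = 0.0397). Aldehyde dehydrogenase genes were thus found on both sides, with Aldh1a1 and Aldh2 lower and Aldh3a1 higher in the inflamed sums.

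The SOX family list, without Sox4 and Sox9, held 17 genes, 7 of them at 0 reads. Of the 8 tested, 3 were higher in both batches and 2 lower (30.6 and 28.6% of all genes). None of them had an unadjusted p under 0.05. Of the 12 tested genes of polycomb repressive complex 1 and its target locus (17 listed), 1 was higher and 4 were lower in both batches. None had an unadjusted p under 0.05, and the median log2 difference was -0.36. Cdkn2a itself had 0 reads. Among 7 tested genes of the LRIG family and its receptor partners, Lrig2 had 56.4 and 148.2 CPM in the naive and 19.8 and 43.6 CPM in the inflamed sums (p = 0.0391). In naive batch 3, 1 cell held 58.5% of the Lrig2 reads. Erbb3, a receptor of the ERBB family, had 0.0177 and 1.88 CPM against 19.2 and 42.2 CPM (p = 0.0497). Its naive batch-2 level rests on 1 read, and 1 cell held 98.9% of its naive batch-3 reads. The median log2 difference of this list was -0.31, with 2 genes on the higher and 3 on the lower side in both batches.

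Of 7 tested genes of protein C signalling and coagulation at the cell surface, 1 was higher in both batches and 3 were lower (30.6 and 28.6% of all genes), with a median log2 difference of -0.45. The higher one, F3 (tissue factor, which starts coagulation), had 1474 and 1685 CPM in the naive and 6209 and 3794 CPM in the inflamed sums (log2 difference 1.62 ± 0.34, SE; p = 0.0105). Gas6, a ligand of TAM receptors, had 238.2 and 155.8 CPM against 88.5 and 80.8 CPM (p = 0.0432). Of 7 tested surface proteins akin to Prom1, Alcam and Cd200, 2 had higher and 3 had lower levels in both batches, and the median was -0.57. Cd47, which restrains phagocytosis by macrophages, had 174.5 CPM in naive batch 2 and 477 and 560.6 CPM in the inflamed sums, 2.73-fold and 4.12-fold higher within the batches (p = 0.00872), while Cd200, which also restrains myeloid cells, was lower. Cd200r1 and Cd6, the partners of Cd200 and Alcam on immune cells, had 0 reads in every group.

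Of 25 tested further stem and progenitor genes (30 listed), 11 were higher in both batches and 10 lower (30.6 and 28.6% of all genes), and the median log2 difference was 0.50, with 0.22 in batch 2 and -0.07 in batch 3. Ly6a had 522.5 and 629.5 CPM in the naive and 2121 and 2031 CPM in the inflamed sums (log2 difference 1.86 ± 0.27, SE; p = 0.00304). It encodes Sca-1, on which the cells were sorted, and the part of the gate in its level was not tested. Runx1, a transcription factor, lies outside the rule for named genes and was chosen after its values were seen. It had 89.7 and 153.7 CPM against 489.7 and 361.6 CPM (p = 0.0194). Id1 and Id3, inhibitors of differentiation and targets of BMP signalling, were lower: Id1 had 463.5 and 551.3 CPM in the naive and 59.9 and 127.5 CPM in the inflamed sums (log2 difference -2.53 ± 0.39, SE; p = 0.00408). Id3 had 3772 and 4041 CPM against 702.1 and 1275 CPM (p = 0.00399). Lgr4, an R-spondin receptor, had 1657 and 2192 CPM against 647.7 and 1004 CPM (p = 0.00988). All p-values of these lists are unadjusted edgeR values, and the adjusted p of each gene was 0.568 or higher.

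**Figure D4:**
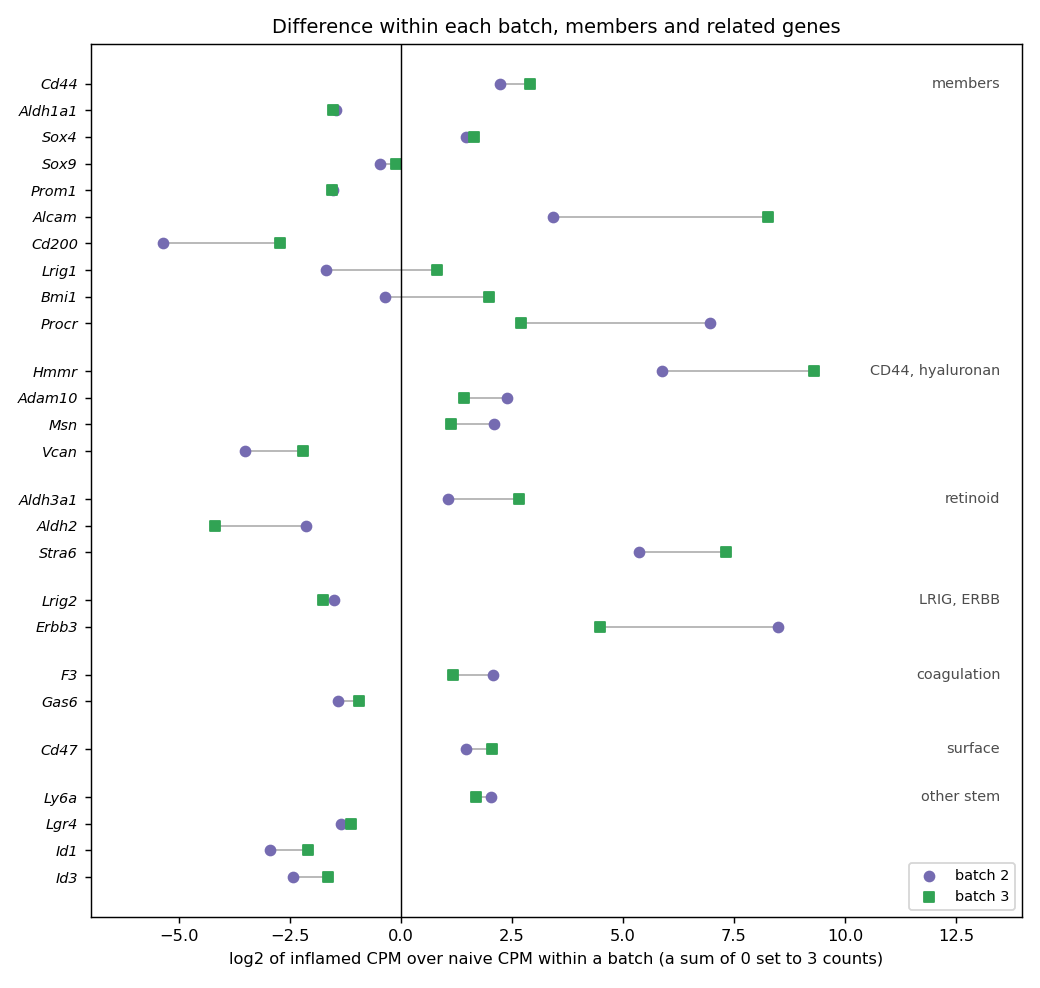
Log2 of the inflamed over the naive CPM within batch 2 (purple circles) and batch 3 (green squares) for the 10 stem markers and for the named genes of the related lists, with a line at 0 and a sum of 0 set to 3 counts. The points of Lrig1 (-1.69 and 0.81) and Bmi1 (-0.37 and 1.98) lie on both sides of 0, and those of the other markers lie on 1 side. The list genes lie on 1 side by the rule that chose them, which asked for the same direction in both batches.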

How the data were processed

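The authors deposited 1 table per batch, with a raw read count for each gene in each cell. TopHat2, HTSeq, R 3.4.1, Seurat 1.4 and the build GRCm38.p6 are named without roles per the submitters' processing notes. How reads placed in several genes were counted, and whether strand was used, was not given in the sources used here. Per the labels' protocols, cDNA was made with SMARTer chemistry and libraries with a Nextera kit, and the single-end reads lack molecular identifiers: counts are reads, not molecules.

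A cell was kept with at least 1000 detected genes and at least 50000 counts, which removed 14 of 282 cells. The 282 columns were all distinct, and no doublet caller was run. Kept cells held 52475 to 2219764 counts. Counts were summed by condition and batch and tested with edgeR 4.0.16 in R 4.3.3 (quasi-likelihood F test with TMM factors, genes filtered by filterByExpr, condition and batch in the model, 1 residual and 2.66 prior degrees of freedom, Benjamini-Hochberg adjusted p under 0.05 over all 14713 genes). CPM are counts over the TMM-corrected library size, and a fold against a sum of 0 sets that sum to 3 counts. Each SE was derived from the edgeR test, as the size of the log2 difference over the square root of its F statistic. The script was tested on simulated data. A batch number marks cells processed together per the series text, so batch is the block, and deviations of the conditions within a batch had a correlation of -0.01. Gene symbols and coordinates came from GENCODE M21 for GRCm38. Named list genes are at most 4 per list, with the smallest unadjusted p under 0.05 and the same direction in both batches. The markers and the lists were chosen with earlier results of these data known. Alternatives were DESeq2 1.42.0, other scaling, other filters on genes and cells, thinned cells, no batch term, single batches and sums without each group's top cell. A result of 1 list gene is not reported here.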

Additional observations from a re-analysis of the deposited data

How the results depend on the processing

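All edgeR alternatives with a test called 0 genes, while DESeq2 called 1461. DESeq2 put 5 markers past the threshold with like values, Cd44 at 2.56, Aldh1a1 at -1.50, Alcam at 5.77, Cd200 at -4.05 and Procr at 6.24 on the log2 scale. The log2 difference of Lrig1 turned from -0.44 to 0.16 with no batch term (no replicate block) and to 0.05 without each group's top cell, and within single batches it ranged from -1.69 to 0.81. Within single batches Bmi1 ranged from -0.37 to 1.98 and Procr from 2.69 to 6.95. The cause was not tested. With no replicate block, the genes on the higher side by unadjusted p under 0.05 numbered 1155 in place of 742, and DESeq2 gave 1743 higher in place of 742 and 1136 lower in place of 475. The 10 markers kept their direction and side of the threshold under all other alternatives. Over edgeR's alternatives with a test, which leave out the single batches, the log2 difference of Cd44 ranged from 2.51 to 2.96 (adjusted p 0.192 to 0.658), of Aldh1a1 from -1.50 to -1.43 (0.237 to 0.658) and of Alcam from 4.02 to 7.07 (0.365 to 0.658). Requiring a gene in 20% of cells left Prom1, Lrig1, Bmi1 and Procr untested. Leaving out a batch leaves 1 sum per condition and so no test. Of 40 shares per setting, 19 moved beyond their interval with at least 5 reads required and 4 with thinned cells. A cutoff of 100 CPM, added after seeing the data, moved 32.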
